A study of Mus musculus with 2 samples.

Results

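Genes for chromatin modifying enzymes and remodellers were examined in eosinophils, granulocytes that live in the gut wall in health. Colons of naive wild-type C57BL6 mice had been digested with enzymes and the eosinophils sorted by flow cytometry, which gave 2 samples in 1 group. Neither the age and sex of the mice, nor the number of animals or the sort gate, is given in the sources used here. Their RNA was profiled by CEL-Seq, a method whose tags come from the 3′ region of polyadenylated transcripts, in 3 technical libraries a sample. Each transcript has a read total and an RPKM, the reads scaled to transcript length in kilobases and to 1000000 reads, and both pool the 2 samples. Spread between samples therefore cannot be given, and nothing was tested between them.

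The genes were taken by symbol: the Hdac, Sirt, Kat, Ep300 and Crebbp, Kmt2, Setd, Ezh, Kdm, Jmjd, Smarc, Chd, Brd, Arid, Dnmt and Tet families. Of 23477 gene symbols in the table, 113 matched, and each is represented by its transcript row with the most reads. Intervals in parentheses are exact 95% Poisson intervals of the reads summed over the 6 libraries, scaled to RPKM, and they cover counting error only. Higher and lower between genes mean RPKM values with separate counting intervals, unless the overlap is stated.

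DNA in the nucleus is wrapped around histones, and the genes described here set how tightly. Acetyltransferases add acetyl groups that loosen chromatin and bromodomain proteins read them, while deacetylases and sirtuins take them off. Methyltransferases and demethylases write and erase methyl marks that favour or repress transcription, remodellers of the SWI/SNF, ISWI and CHD families slide or evict nucleosomes with the energy of ATP, and DNA methyltransferases and Tet enzymes set and remove DNA methylation. In myeloid cells these enzymes are known for setting which inflammatory genes can be switched on.

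The start regions of 5 genes are shown. The results below turn on which paralog, or which transcript row of a gene, was given the reads. These are Hdac2 against Hdac1, Smarca2 against Smarca4, Ezh1 against Ezh2, and the downstream against the upstream start of Dnmt3a. The Dnmt3a rows share their 3′ end, so tags there cannot by themselves tell its starts apart. Each region runs 5′ to 3′ from 250 bases before the start to 50 bases after it. All are from RefSeq in the build GRCm38.p6, and capitals mark CG dinucleotides. Hdac1 and Smarca4 are named only. The Smarca2 window is that of the gene's long transcript row, not of the short row that held most of its reads.
Hdac2, chr10:36974294-36974593, plus strand: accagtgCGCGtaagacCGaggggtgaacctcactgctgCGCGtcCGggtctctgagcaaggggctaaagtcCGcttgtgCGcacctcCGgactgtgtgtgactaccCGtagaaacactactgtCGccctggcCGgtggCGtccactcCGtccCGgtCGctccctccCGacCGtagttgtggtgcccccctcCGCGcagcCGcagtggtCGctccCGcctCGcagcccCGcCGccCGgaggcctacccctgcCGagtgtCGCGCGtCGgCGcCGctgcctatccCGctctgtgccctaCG
Smarca2, chr19:26604910-26605209, plus strand: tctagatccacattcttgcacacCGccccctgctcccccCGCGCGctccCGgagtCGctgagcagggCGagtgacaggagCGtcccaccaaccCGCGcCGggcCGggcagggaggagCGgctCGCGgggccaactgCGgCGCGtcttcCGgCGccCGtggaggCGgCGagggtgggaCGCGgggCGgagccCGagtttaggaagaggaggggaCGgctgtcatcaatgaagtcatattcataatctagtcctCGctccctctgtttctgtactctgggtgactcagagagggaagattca
Ezh1, chr11:101226414-101226713, minus strand: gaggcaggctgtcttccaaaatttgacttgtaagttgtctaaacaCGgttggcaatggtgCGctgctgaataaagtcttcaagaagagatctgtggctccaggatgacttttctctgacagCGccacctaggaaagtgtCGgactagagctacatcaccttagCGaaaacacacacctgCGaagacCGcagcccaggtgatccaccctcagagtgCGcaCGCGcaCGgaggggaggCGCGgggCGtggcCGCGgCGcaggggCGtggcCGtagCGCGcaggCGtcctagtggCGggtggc
Ezh2, chr6:47594981-47595280, minus strand: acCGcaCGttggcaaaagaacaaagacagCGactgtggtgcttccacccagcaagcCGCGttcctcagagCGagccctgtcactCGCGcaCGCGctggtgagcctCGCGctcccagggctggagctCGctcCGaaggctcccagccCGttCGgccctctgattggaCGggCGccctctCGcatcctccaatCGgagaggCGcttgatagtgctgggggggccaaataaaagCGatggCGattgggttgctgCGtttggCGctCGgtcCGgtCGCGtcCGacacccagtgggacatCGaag
Dnmt3a downstream start, chr12:3891494-3891793, plus strand: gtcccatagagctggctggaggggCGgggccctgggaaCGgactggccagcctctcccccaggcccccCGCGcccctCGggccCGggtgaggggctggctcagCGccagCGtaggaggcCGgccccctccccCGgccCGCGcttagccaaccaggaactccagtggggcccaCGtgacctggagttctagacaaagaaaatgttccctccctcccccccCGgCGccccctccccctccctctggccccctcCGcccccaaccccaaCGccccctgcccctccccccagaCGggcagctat
Dnmt3a upstream start, chr12:3806730-3807029, plus strand: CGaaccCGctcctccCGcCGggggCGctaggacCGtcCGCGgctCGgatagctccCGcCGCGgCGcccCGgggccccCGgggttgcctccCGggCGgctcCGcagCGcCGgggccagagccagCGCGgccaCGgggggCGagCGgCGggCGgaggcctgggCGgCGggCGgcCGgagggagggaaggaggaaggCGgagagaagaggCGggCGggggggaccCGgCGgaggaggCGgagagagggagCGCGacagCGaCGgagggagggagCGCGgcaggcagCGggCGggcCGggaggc

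The windows of Hdac2, Smarca2, Ezh1 and Ezh2 hold 36, 29, 23 and 31 CG dinucleotides. That of the downstream Dnmt3a start holds 18 and that of the upstream start 46. CCAAT, searched on both strands, occurs 3 times in the Ezh2 window and 0 times in the Ezh1 window. Across the chromatin genes, 80 had a window within 100 bases of the start of their transcript row, with a median of 24 CG dinucleotides, against a median of 14 in the windows of all 16468 genes matched in the same way. Under 5 CG dinucleotides were found in 3 of these 80 windows and in 4643 of the 16468. TATAAA, on either strand, was in 6.25% of the chromatin gene windows and 13.3% of all windows, CCAAT in 36.2% and 39%, and the GC box GGGCGG in 68.8% and 47.3%. None of these motifs contains another, though their ends may overlap, and a match describes letters only.

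Transcripts of most chromatin genes were detected. At a minimum RPKM of 1 stood 78 of the 113 chromatin genes, or 69%, against 31% of all genes. A read was found for 109 of the 113, against 69% of all genes with an RPKM above 0. At an RPKM of 10 or more stood 13 of them, or 11.5%, against 8.76% of all genes, and at 5 or more 29, against 14.1%. Their median RPKM was 2.03, with quartiles of 0.729 and 5.25, and that of all genes was 0.186.

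These genes have long transcripts, and RPKM divides by length although CEL-Seq reads a region near the 3′ end. The mean reads behind 1 unit of RPKM, which grow with transcript length, had a median of 14.1 for the chromatin genes above 0 and 8.03 for all genes above 0. Counted without length, as reads per 1000000 reads on genes (RPM), 91.2% of the chromatin genes reached 1, against 50.9% of all genes, and 75 of them, or 66.4%, reached 10, against 25.8% of all genes. The median chromatin gene lay above 77.1% of all genes by RPKM and above 83.8% by RPM, and 84 of the 113 ranked higher by RPM. Together the 113 genes, 0.481% of the symbols, held 55889 reads, or 0.727% of the reads and 0.232% of the summed RPKM.

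**Figure D1:**
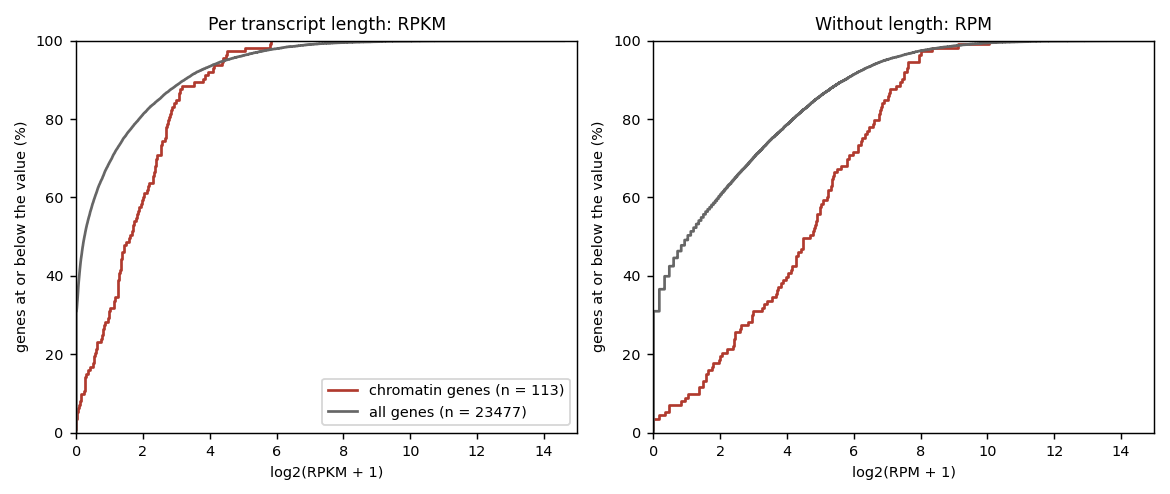
Cumulative share of genes (%, vertical axis) at or below each level on a log2 scale with 1 added, by RPKM (left) and RPM (right), for the 113 chromatin genes (red) and all 23477 genes (grey). The red curves lie to the right of the grey ones over most of the range, with medians of 2.03 against 0.186 RPKM and of 24.8 against 1.04 RPM, and the curves meet among the highest genes.

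Reads were unevenly spread among the chromatin genes. Smarca2, an ATPase of the SWI/SNF remodeller, had the highest RPKM at 56.1 (53.6 to 58.6), from 1894 reads. This place rests on a short transcript row, since at the RPKM per read of the gene's long row those reads would give 16.1. That is below Kdm6b and Kmt2e, and also below others such as Hdac2, Brd9, Sirt7 and Hdac7, at 21.6, 21.4, 20.1 and 19.8. Kdm6b, a demethylase that removes the Polycomb mark and is known to be induced in activated macrophages, had 55.3 (54.1 to 56.5). Its interval overlaps that of Smarca2, and its 8129 reads were the most of any chromatin gene. Kmt2e, a divergent relative of the trithorax methyltransferases, followed at 32.1 (31.1 to 33.1) from 4251 reads. These 3 genes held 26.1% of the summed RPKM of the 113, and Kdm6b alone held 14.5% of the reads on the 113. The 10 highest by RPKM held 49.6%, and 3 of those 10 were in the top 10 by reads as well. Even so, Kdm6b ranked 532 among all genes by RPKM and 129 by RPM.

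**Figure D2:**
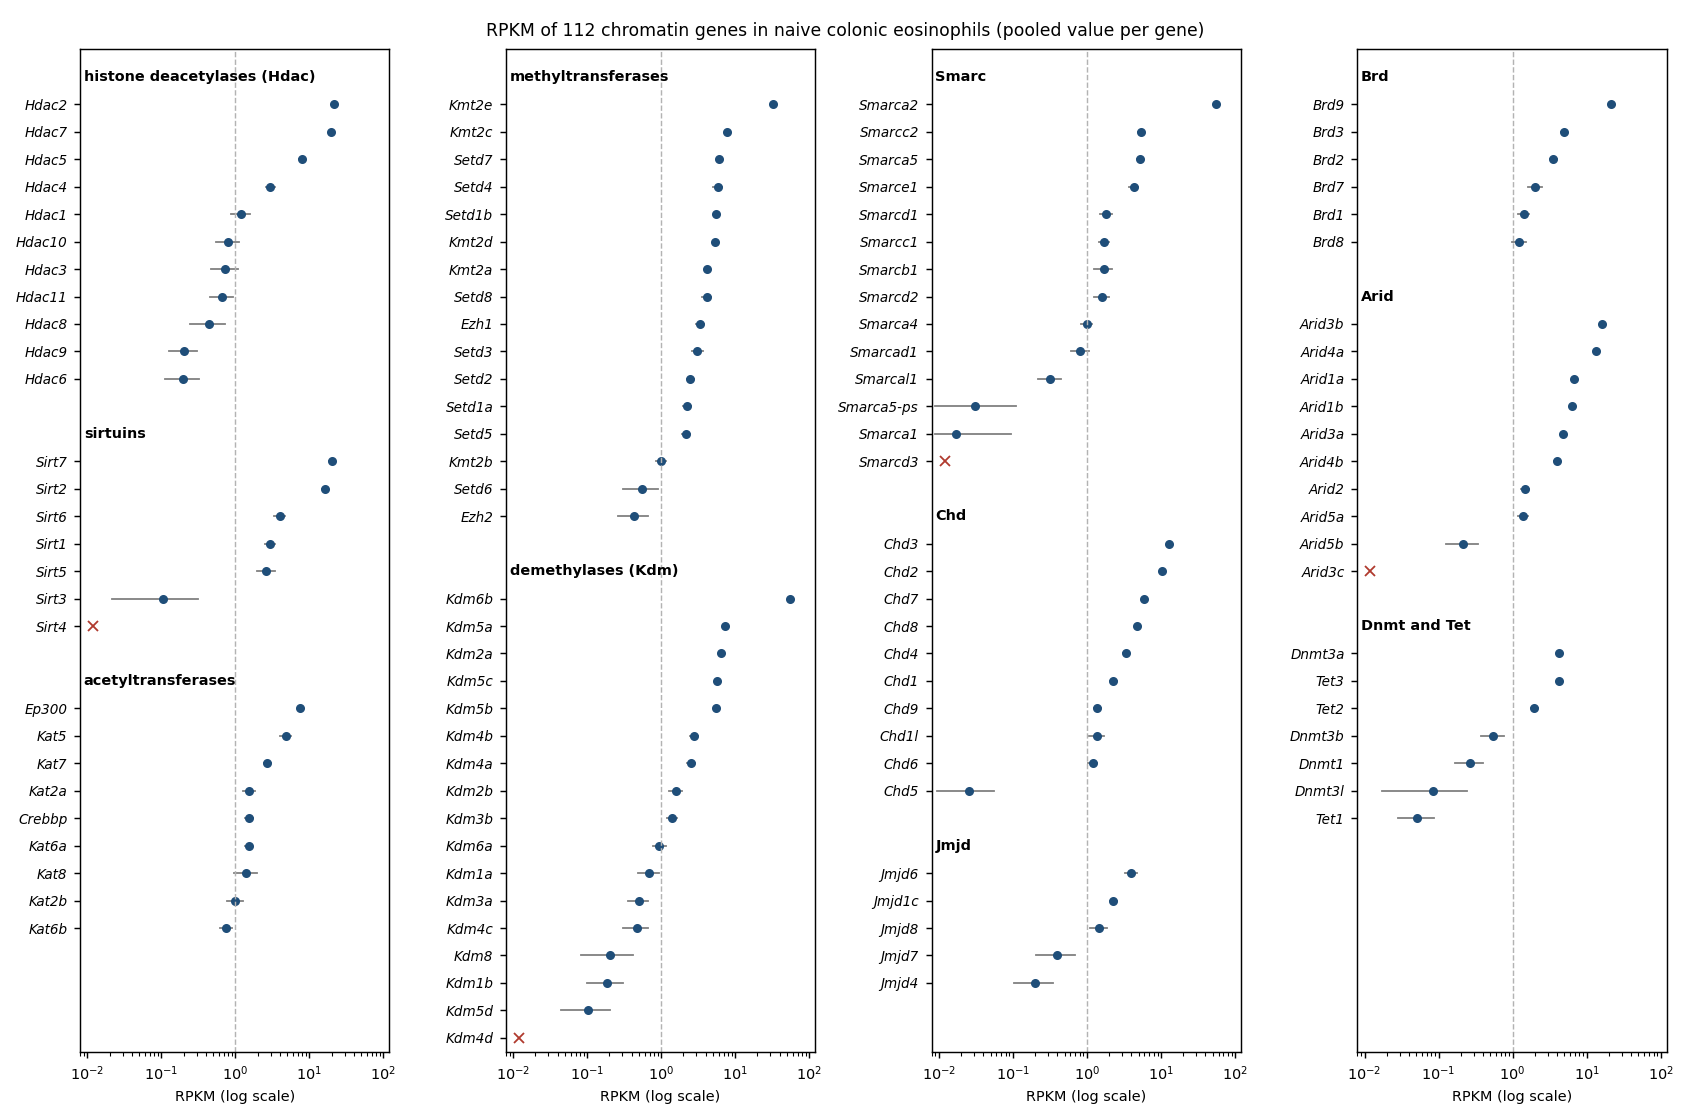
Pooled RPKM (log axis) of 112 of the 113 chromatin genes by class, with exact 95% Poisson intervals of the reads as grey bars, cut at the left edge of the axis, and a dashed line at an RPKM of 1. Crosses at the left mark the 4 genes listed at 0, Sirt4, Smarcd3, Kdm4d and Arid3c, and points to the right of 30 are Smarca2, Kdm6b and Kmt2e.

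Of the 11 histone deacetylases, 5 had an RPKM at or above 1, and their median was 0.792. By RPM all 11 reached 1. Hdac2, a class I enzyme of the NuRD, Sin3 and CoREST complexes, had 21.6 (20.1 to 23.3) from 722 reads. Its near relative Hdac1, which works in the same complexes, had 1.19 (0.872 to 1.58) from 47 reads. Hdac2 thus held 94.8% of the RPKM of this pair, and 93.9% of its reads (exact Clopper-Pearson interval 92.0 to 95.5). The class IIa enzymes, which act mainly as scaffolds for repressor complexes and shuttle between nucleus and cytoplasm, spanned a wide range. Hdac7 had an RPKM of 19.8 (18.7 to 20.8) from 1384 reads, with an interval that overlaps that of Hdac2, Hdac5 of 7.95 (7.33 to 8.61) and Hdac4 of 2.97 (2.61 to 3.38), while the last of them, Hdac9, had 0.201 (0.126 to 0.304). Hdac3, the catalytic subunit of the NCoR complex, had 0.729 (0.467 to 1.08) from 24 reads. Hdac10, Hdac11 and Hdac8 had 0.792, 0.656 and 0.438, and the tubulin deacetylase Hdac6 had 0.197 (0.113 to 0.321), which overlaps the intervals of Hdac9 and Hdac8.

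Sirtuins remove acetyl groups with NAD, and 5 of 7 were above an RPKM of 1, with a median of 2.95. Sirt7, a nucleolar enzyme, had 20.1 (18.6 to 21.8), Sirt2, largely cytoplasmic, 16.3 (14.9 to 17.7), and the nuclear Sirt6 and Sirt1 had 3.995 (3.36 to 4.71) and 2.95 (2.55 to 3.40), with overlapping intervals. Of the mitochondrial sirtuins, Sirt5 had 2.61 (1.95 to 3.42) from 52 reads, Sirt3 had 0.106 (0.0219 to 0.310) from 3 reads, and Sirt4 was listed at 0.

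Acetyltransferases were detected without exception, and 7 of 9 were at or above 1 by RPKM, with a median of 1.53. The general coactivator Ep300 led at 7.44 (6.99 to 7.91), and its paralog Crebbp had 1.53 (1.33 to 1.74). Ep300 held 83.0% of the RPKM of this pair and 82.1% of its reads (79.9 to 84.2). Kat5, the enzyme of the NuA4 complex, had 4.82 (4.05 to 5.69) and Kat7, which acetylates histones at replication origins and promoters, 2.71 (2.41 to 3.02). The Kat5 value, from 140 reads, is that of a noncoding transcript row. At the RPKM per read of the gene's coding row with 79 reads it would be 2.68. The paired enzymes of the SAGA and PCAF complexes differed by 1.56 times, with RPKM of 1.54 (1.265 to 1.87) for Kat2a and 0.990 (0.769 to 1.256) for Kat2b. Kat6a had 1.51 (1.34 to 1.70), Kat8 1.39 (0.960 to 1.96) and Kat6b 0.742 (0.611 to 0.893), which overlaps the interval of Kat2b.

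Methyltransferases were the class with the most reads, 24.7% of those on the 113 genes, and 14 of the 16 had an RPKM at or above 1. Their median was 3.74. Beside Kmt2e stood the enhancer enzymes Kmt2c at 7.69 (7.39 to 8.001) and Kmt2d at 5.42 (5.18 to 5.67). The promoter enzyme Kmt2a had 4.16 (3.95 to 4.39) and its paralog Kmt2b 1.00 (0.853 to 1.17), a ratio of 4.16 by RPKM. Setd7 had 6.09, Setd4 5.85, and the trithorax-type Setd1b 5.50 (5.14 to 5.88), against 2.26 (1.99 to 2.57) for its paralog Setd1a. Setd8, now named Kmt5a, which methylates histone H4, had 4.13, Setd3, an actin methyltransferase, 3.10, Setd2, which marks transcribed gene bodies, 2.48 and Setd5 2.18. Setd6 had 0.553 from 15 reads.

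The catalytic subunits of the Polycomb complex that methylates histone H3 differed. Ezh1, typical of resting cells, had an RPKM of 3.34 (2.98 to 3.74) from 304 reads, and Ezh2, typical of dividing cells, had 0.432 (0.260 to 0.675) from 19 reads. Ezh1 held 88.6% of their RPKM and 94.1% of their reads (91.0 to 96.4). Their start regions above differ in CCAAT, with 3 copies in that of Ezh2.

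Of the 17 demethylases, 9 had an RPKM at or above 1, and their median was 1.40. By RPM 15 of the 17 reached 1. Kdm6b had 58.5 times the RPKM of Kdm6a, its X-linked paralog, which had 0.946 (0.770 to 1.15) from 101 reads. The Kdm5 enzymes, which erase the promoter mark that trithorax enzymes write, had RPKM of 7.39 (7.02 to 7.77) for Kdm5a, 5.68 (5.30 to 6.08) for Kdm5c and 5.54 (5.10 to 6.01) for Kdm5b, the last pair with overlapping intervals. The Y-linked Kdm5d had 0.103 (0.0443 to 0.202) from 8 reads, and 31.5% of its searched sequence words are also in other genes. Kdm2a, of a CpG island-binding family, had 6.54 (6.14 to 6.95) and its paralog Kdm2b 1.58 (1.27 to 1.94). Kdm4b and Kdm4a had 2.81 and 2.53 with overlapping intervals, Kdm3b had 1.40, Kdm3a 0.495 and Kdm4c 0.467. Kdm1a, the flavin-dependent demethylase of the CoREST complex, had 0.696 (0.495 to 0.951) from 39 reads, and Kdm1b had 0.185 from 14 reads. Kdm8 had 0.205 from 7 reads, and Kdm4d, known mainly from testis, was listed at 0.

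Of the 14 Smarc genes, 8 were at or above 1 by RPKM, and their median was 1.63. SWI/SNF complexes carry either Smarca2 or Smarca4 as their motor. Smarca2 held 98.3% of the RPKM of this pair and 93.7% of its reads (92.5 to 94.7), and Smarca4 had 0.990 (0.826 to 1.18) from 128 reads. The Smarca2 value rests on a short transcript row that starts at 26748403 on chromosome 19, 143243 bases downstream of the start of the long row, and both rows end at 26778321. The long row, whose start region is shown above, had 83 reads and an RPKM of 0.708, against 128 reads and 0.990 for Smarca4. Because both rows share their 3′ end, tags there cannot by themselves tell them apart. At the RPKM per read of the long row the 1894 reads would give 16.1, which is still above the 0.990 of Smarca4. Whether RPKM per read differs between rows by length alone was not tested.

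The core subunits Smarcc1, Smarcc2, Smarce1 and Smarcb1 were lower than the short row of Smarca2 and higher than Smarca4 by RPKM. Counted without length, Smarcb1, with 52 reads, was below Smarca4, with 128. Smarcc2 had 5.42 (4.94 to 5.93) and its paralog Smarcc1 1.71 (1.46 to 2.00), Smarce1 had 4.30 (3.73 to 4.93) and Smarcb1, present in most SWI/SNF complexes, 1.69 (1.26 to 2.22). Smarcd1 and Smarcd2, of which Smarcd2 is required for granulocyte maturation, had RPKM of 1.82 (1.51 to 2.18) and 1.58 (1.24 to 1.98) with overlapping intervals, and Smarcd3 was listed at 0. Of the ISWI motors, Smarca5 had 5.25 (4.76 to 5.78) and Smarca1 0.0172 from 1 read. The annealing helicase Smarcal1 had 0.317, Smarcad1 0.820 and the pseudogene Smarca5-ps 0.0305 from 2 reads, with 74.0% of its searched words shared.

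Some subunits tell the types of SWI/SNF complex apart. Arid1a and Arid1b, alternative subunits of the canonical complex, had 6.85 (6.43 to 7.29) and 6.36 (6.001 to 6.73) with overlapping intervals. Brd9, of the noncanonical complex, had 21.4 (20.0 to 22.9) from 853 reads. The subunits of the PBAF complex were lower than Brd9 by RPKM, with 2.03 (1.63 to 2.49) for Brd7, 1.46 (1.28 to 1.66) for Arid2 and 8.94 for Pbrm1. Counted without length, Pbrm1 was above Brd9, with 1221 reads against 853. Transcript levels do not measure complexes.

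All 7 Brd genes were at or above 1 by RPKM, and their median was 3.53. Brd3 and Brd2, readers of acetylated histones, had 4.97 (4.57 to 5.40) and 3.53 (3.15 to 3.94). Brd1 had 1.43 and Brd8, a subunit of the NuA4 complex, 1.22 (0.989 to 1.497).

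Of the 10 Chd genes, 9 were at or above 1 by RPKM, and their median was 2.84. Chd3, a motor of the NuRD complex, had 12.9 (12.4 to 13.5), against 3.40 (3.09 to 3.74) for Chd4, its more familiar alternative, so that Chd3 held 79.2% of their RPKM. Chd2 had 10.4 (9.90 to 11.0) and Chd1, which binds the active promoter mark, 2.28 (2.03 to 2.55). Chd7 and Chd8 had 5.95 (5.63 to 6.29) and 4.83 (4.51 to 5.17), and Chd9, Chd1l and Chd6 had 1.39, 1.36 and 1.20. Chd5, known from neurons and testis, had 0.0256 (0.00939 to 0.0557) from 6 reads. Chd3 and Kdm6b lie near each other on chromosome 11, at 69343273 to 69369426 and 69398518 to 69413675, with 29091 bases between them. In all, 4 such pairs of chromatin genes lie within 250000 bases of each other, whatever genes lie between them.

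The remaining Arid genes were led by Arid3b at 16.2 (15.3 to 17.1) and Arid4a, a partner of the Sin3 complex, at 13.4 (12.8 to 14.1). Arid3a had 4.86 (4.45 to 5.29) and Arid4b 3.97 (3.61 to 4.36). Arid5a, known to stabilise inflammatory cytokine mRNAs, had 1.39 (1.18 to 1.62), Arid5b 0.214 (0.127 to 0.339) from 18 reads, and Arid3c was listed at 0. Of the 10 Arid genes, 8 reached an RPKM of 1.

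DNA methylation genes had the lowest median of the classes, 0.548, and 3 of 7 were at or above 1 by RPKM and 6 of 7 by RPM. Dnmt3a, which sets new methylation, had 4.28 (3.97 to 4.62) from 667 reads, and its paralog Dnmt3b had 0.548 (0.377 to 0.769) from 33 reads. The maintenance enzyme Dnmt1, which copies methylation after replication, had 0.265 (0.168 to 0.398) from 23 reads, and the catalytically inactive Dnmt3l 0.0835 from 3 reads. Of the Tet enzymes, which oxidise methylcytosine, Tet3 had 4.25 (3.97 to 4.55), Tet2 1.98 (1.75 to 2.22) and Tet1 0.0514 (0.0281 to 0.0862). All reads of Dnmt3a stand in the row that begins at the downstream start, 3891744 on chromosome 12, and the rows of the upstream starts were listed at 0. These rows share their 3′ end at 3914443, so tags there cannot by themselves tell the starts apart.

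The Jmjd genes, a family of oxygenases of which some demethylate histones and some act on other proteins, included 3 of 5 at or above 1 by RPKM and 5 of 5 by RPM. Jmjd6 had 3.97 (3.30 to 4.72), Jmjd1c 2.28 (2.04 to 2.53) and Jmjd8 1.45 (1.12 to 1.85). Jmjd7 had 0.401 and Jmjd4 0.202, each from 12 reads, and 73.0% of the searched words of Jmjd7 are in another gene.

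Set side by side, 17 pairs or trios of paralogs that fill the same place showed how unequal they were. In 8 of them a single paralog held 80% or more of both the RPKM and the reads: Hdac2, Ep300, Ezh1, Kdm6b, Smarca2, Chd2, Dnmt3a and Kmt2a. The share of Smarca2 counts its short row, while its long row had an RPKM of 0.708, against 0.990 for Smarca4. With all rows of a gene summed, the share of Ezh1 was 79.5% by RPKM. That sum counts 19 reads in each of the 2 tied rows of Ezh2. In 3 the leader held under 60% of the RPKM, and these were the Smarcd, Arid1 and Kmt2c and Kmt2d sets. The leader was the same by reads in 16 of 17, and the exception was Arid1a, which held 51.9% of the RPKM but 45.8% of the reads of its pair (43.7 to 47.9).

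**Figure D3:**
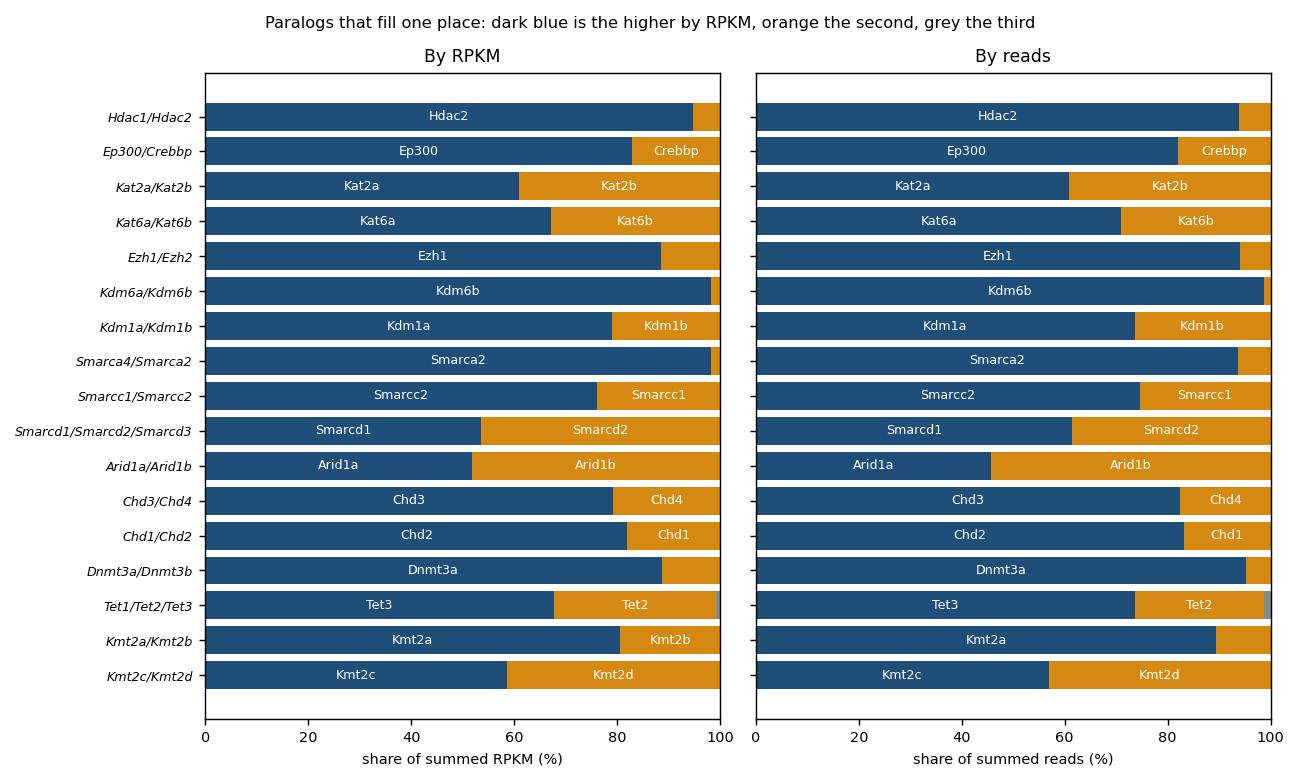
Share (%) of the summed RPKM (left) and of the summed reads (right) held by each paralog in 17 sets, with the paralog that has the higher RPKM in dark blue, the next in orange and the last in grey. Kdm6b and Smarca2 fill over 98% of their bars by RPKM, and Arid1a and Arid1b change places between the panels.

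Other genes of the same complexes were looked up as 6 lists with 79 genes found, and Srcap was not analysed here. At or above 1 by RPKM were 52 of the 79, or 65.8%, against 31% of all genes, with a median of 2.07. The corepressor list stood highest by RPKM, with 14 of 17 at 1 or more and a median of 7.15. By RPM its median was 48.1, below the 57.6 of the list of other remodellers and DNA methylation partners. The corepressor list was led by RPKM by the NCoR complex subunits Gps2 at 226 and Ncor1 at 95.2. The methyl-DNA-binding NuRD subunit Mbd2 followed at 77.6. Counted without length, Ncor1 was above Gps2, with 13584 reads against 5760. Of the searched words, 21.5% of those of Ncor1 and 7.08% of those of Gps2 are also in another gene. Set beside these NCoR subunits, Hdac3, the enzyme of that complex, had an RPKM of 0.729.

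The core of the trithorax-type complexes had 6 of 8 genes at 1 or more, led by Cxxc1 at 39.1, Dpy30 at 11.8 and Hcfc1 at 11.4. Polycomb genes had 12 of 20, led by Rbbp4 at 11.4, the ubiquitin ligase Rnf2 at 10.6 and Suz12, a partner of Ezh1 and Ezh2, at 7.93. Additional SWI/SNF subunits had 6 of 11, led by Dpf2 at 15.9, Pbrm1 at 8.94 and Bcl7b at 7.95, and Actl6b, a neuronal subunit, and Bcl7c, with 57.7% of its words shared, were listed at 0. Other writers had 9 of 14, led by the heterochromatin enzyme Suv39h1 at 5.91, Whsc1l1 at 5.69 and Prmt1 at 2.65, and Carm1 was listed at 0. The last list had 5 of 9, led by the methyl-DNA reader Mbd1 at 21.2, Atrx at 3.95 and Bptf at 3.44, and Uhrf1, the partner of Dnmt1, was listed at 0.

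**Figure D4:**
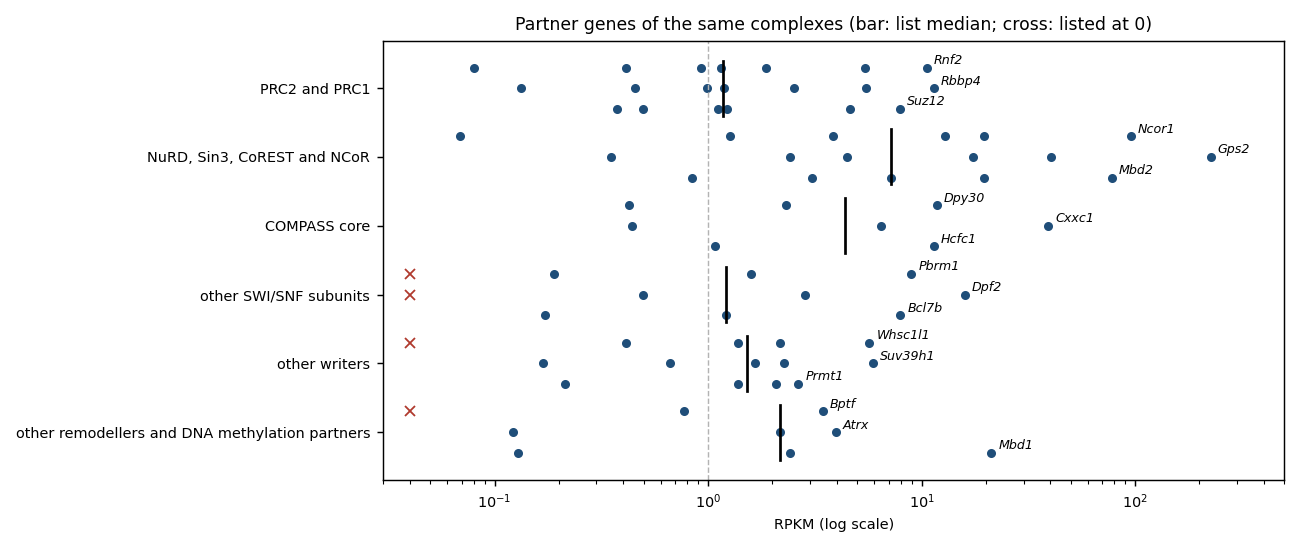
RPKM (log axis) of 79 partner genes in 6 lists, 1 point per gene, with the list median as a black bar, the 3 highest of each list named, a dashed line at an RPKM of 1 and crosses for genes listed at 0. Gps2, Ncor1 and Mbd2 stand apart at 226, 95.2 and 77.6.

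Genes listed at 0 include ones that nearly all cells use, such as the glycolytic gene Eno1, so a 0 says only how the gene is listed. For a count of 0 over the 6 libraries a fixed upper limit of 3 reads, or 0.390 RPM, was set, and the exact Poisson interval reaches 3.69 reads. Of the 113 chromatin genes, 4 were listed at 0 and 7 more had 10 reads or fewer, while 71 had 100 or more.

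Counting choices touch some values. Of the 113 genes, 40 have more than 1 transcript row, and rows that share a 3′ end formed 37 sets. In 16 of these sets the reads stood in a single row, in 12 every row was equal, in 7 the rows differed and in 2 every row was listed at 0. In the table as a whole the numbers were 1523, 778, 715 and 714 of 3730. Another gene lies within the last 1000 bases or the next 500 bases of 22 of the 113. Hdac1 faces the opposite-strand gene Marcksl1, with 5078 reads, and Kmt2e faces Srpk2, with 1652. Strand use in counting is not given in the sources used here, so reads of such genes cannot be told apart.

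The sort was checked against markers. Of 9 eosinophil markers, 8 reached an RPKM of 1, with a range of 0.265 to 230, a summed RPKM of 824 and the peroxidase gene Epx lowest. All 9 epithelial and all 5 goblet markers also reached 1, with summed RPKM of 228 and 138, as did 5 of 6 fibroblast and 5 of 6 macrophage markers, with 136 and 94.2 and Mertk listed at 0. Of 4 erythroid markers 3 did, with 942, nearly all globin, and of 5 B and plasma cell markers 3, with 47.4. Of the T cell markers 5 were found, without Trac, and 3 of them reached 1, with 4.30. Of the neutrophil markers 4 were found, without Ly6g, and 2 of them did, with 34.1 and Mpo and Elane listed at 0. Mast cell and endothelial markers had 2 of 4 and 1 of 3, with sums of 4.01 and 17.0. Chromatin genes are used by all of these cells, and the part of other cells in the values above was not tested. Fewer cells of a type and less RNA per cell cannot be told apart in such bulk samples.

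Cycling cell markers bear on the genes that serve replication. Of 10 such markers 8 were at or above 1 by RPKM, their median was 1.51 and their summed RPKM 19.7, and Top2a and Mki67 had 6.84 and 2.70. Dnmt1 at 0.265, Ezh2 at 0.432, the remodeller Hells at 0.128 and Uhrf1, listed at 0, are known to be high in dividing cells, and all lay below that median. Kat7, described above as acting at replication origins, went the other way at 2.71, and no full list of such genes was drawn up. Some of the cycling markers lay below their own median too, such as Mcm2 at 0.740 and Ccnb1 at 0.777. This grouping of genes was not planned in advance, and its difference from the markers was not tested.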

How the data were processed

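Colonic eosinophils of naive mice were profiled as 2 samples of 1 group, with CEL-Seq in 3 technical libraries per sample, per the labels' protocols. STAR 2.4.2a, DESeq (version not stated) and the build mm10 are named, per the submitters' processing notes. How reads were counted, against which annotation and with what treatment of multiple alignments is not given in the sources used here. In the table deposited by the authors are 31295 transcript rows. Its RPKM values were computed by the authors, per the file headers. Its read totals, a signal column deposited by the authors, are means: multiplied by 6, the number of libraries, 100% came out whole within 0.0001. Both columns pool the samples, so the planned agreement of the 2 samples was not computed. There were 0 columns of other samples.

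For each symbol the row with the most reads was kept, the first in the table where rows tied. Ties touched 13 of the 113 genes, with RPKM up to 1.15 times apart. These gene rows held 7692119 reads in all, a mean of 1282020 for each library. Intervals are exact Poisson for reads and exact Clopper-Pearson for shares, at 95%, and reads copied from 1 molecule may be counted more than once. To find near-identical copies, every stretch of 35 bases within 500 bases of a GENCODE M21 transcript's 3′ end was looked up in other genes, and the percent found is given as shared words. For 105 of the 113 genes it was 0%. Promoter windows, matched for 80 genes, are RefSeq's. Coordinates are those of the table, in mm10. The named genes were the 3 highest and the lowest above 0 of each class, genes listed at 0, paralog sets, and the 3 highest partner genes of a list; others were named after their values were seen. The values of 1 chromatin gene and of partner genes not named are not reported here. Counts include that chromatin gene, except those of paralog sets, and every partner gene found. The chromatin genes and all lists were chosen with earlier results of these data known. Alternatives were RPM, other rows or their sum, other minimums and pseudocounts, a filter on 0, current symbols, and leaving out genes with shared words or neighbours. Intervals came from scipy 1.17.1 and were tested on simulated data, tables from pandas 2.3.3 with numpy 2.4.6 under Python 3.11.15, and plots from matplotlib 3.10.9.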

Additional observations from a re-analysis of the deposited data

Results flagged for a closer look

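An Hdac9 row with a 3′ end of its own, which the gene's value leaves out, held more reads than the 3 set as the limit for a count of 0. This shorter row had 5 reads, beside 22 in the row used.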

How the results depend on the processing

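At an RPKM of 1 or more stood 78 of 113 chromatin genes, and 29 at 5 or more. The number was 103 by RPM, 109 above 0, 82 with rows summed, 79 of 116 with current symbols, 61 of 91 without neighbours at the 3′ end, and 78 under the other 3 alternatives. By class, the number at 1 or more changed by over 1.5 times between RPKM and RPM in 4 of 11 classes: it was 11 by RPM and 5 by RPKM for Hdac, 15 and 9 for Kdm, 6 and 3 for Dnmt and Tet, and 5 and 3 for Jmjd. The median log2(RPKM + 1) of the chromatin genes was 1.35 above that of all genes. The difference was 3.66 by RPM, 0.90 among genes above 0 and 2.90 with a pseudocount of 0.1. Ezh1 held 79.5% of its pair with rows summed, where each tied row of Ezh2 is counted, against 88.6%. Of the paralog leaders, Arid1a fell behind Arid1b by reads, with 45.8% of them, and Smarcd1 fell behind Smarcd2 with 34.9% when all rows of a gene were summed, which counts tied rows more than once. No paired analysis was possible because the table pools both samples, and for the same reason no sample could be left out. Alternatives on current symbols, shared words and neighbours were chosen after seeing the data. Depth limits the genes with few reads: the RPKM intervals of 10 chromatin genes span 1, the closest being Kmt2b at 1.00 and Smarca4 and Kat2b at 0.990.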
